A study of Arabidopsis thaliana with 12 samples.

Results

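Among the genes measured on these arrays, 34 stood at about the same level in leaf and stem of wild-type Arabidopsis thaliana. They were chosen from the measured values. A gene was kept when its probe was annotated to exactly 1 gene, given as a locus code and not as a symbol, when the probe was above 0 on all 12 arrays with a mean deposited intensity of 0.5 or more, and when its mean in stem differed from its mean in leaf by less than 0.5 on the log2 scale after quantile normalization. Of the 3439 probes, 599 carried 1 locus code, 306 of those were above 0 on all 12 arrays, and 110 also reached the intensity limit. Of these 110 genes 35 met the limit on the difference, and 1 of them was left out by name, which gave the 34. All 34 passed the filters because the rule asked for it, so neither their detection nor their small stem minus leaf difference is a result.

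The study compared total RNA from leaves of wild-type plants, ecotype Columbia 0, with total RNA from stem material of the same ecotype, on 6 arrays of each tissue. No treatment, mutation, plant age or growth stage is named for either group. Each tissue has samples numbered 1 to 6, and nothing in the labels says that they came from separate plants, so a p-value here speaks only for the spread among the arrays at hand, part of which may be technical. The number of arrays limits the precision.

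Leaves and stems are built from overlapping sets of cells. Both have green tissue, epidermis and veins, but leaf tissue is dominated by photosynthetic mesophyll, whereas stem tissue holds more vascular cells and fibres with thick walls. Genes for tasks that every living cell carries out are often found at like levels in both, and some of these serve as internal standards when other genes are measured. In whole-tissue RNA, fewer cells of a type and less RNA per cell cannot be told apart, so an even level in leaf and stem does not say that each cell type held the same amount.

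The gene table used for names recorded all 34 as protein coding and had no symbol for any of them; among its synonyms it held a name of known function for AT1G74470 alone, geranylgeranyl reductase, a plastid enzyme that makes the phytyl tail of chlorophyll and of tocopherol. The other genes are therefore given by locus, with no role. By their locus codes 9 lay on chromosome 1, 8 on chromosome 2, 8 on chromosome 3, 6 on chromosome 4 and 3 on chromosome 5, and no pair of them were next to each other in the gene order (0 adjacent pairs). The rule also left out by name 1 gene that differed by more than the limit. Of the other 74 bright locus-named genes, all past the limit, 19, 9, 15, 13 and 18 lay on the chromosomes in the same order.

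Certain features of the whole array touch these genes. The median deposited intensity of all probes lay between 0.104 and 0.154 on the leaf arrays and between 0.154 and 0.324 on the stem arrays, so any statement that a gene was even depends on how the arrays were scaled. Samples with neighbouring numbers (1 and 2, 3 and 4, 5 and 6) resembled each other more than the rest did, which the values show and the labels do not state. Differences are therefore also given within each of these 3 pairs of numbers. Of the markers listed for the tissues, 2 of 10 leaf genes and 0 of 13 stem genes had a probe of their own. LHB1B2, a light-harvesting antenna protein, differed by -0.21 and PRK, phosphoribulokinase of the Calvin cycle, by -0.096 (log2, stem minus leaf; adjusted p = 0.38 and 0.69 in limma), so these markers did not separate the labelled tissues.

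The 34 genes covered a wide span of brightness. Normalized log2 intensity, averaged over the 12 arrays, ran from -2.09 for AT1G02020 to 4.77 for AT4G31530, with a median of -0.44 over the genes, against -0.19 over all 712 probes that met the same brightness limits. A pair of genes stood far above the rest. AT4G31530 had deposited intensities of 18.6 to 46.7 in leaf (median 30.3) and 22.7 to 25.02 in stem (median 23.8), and AT3G26630 had 18.6 to 31.0 in leaf (median 28.9) and 9.91 to 24.4 in stem (median 15.4). On the scale used, which ends at 100, no value of the 34 genes was at the top (0 genes).

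AT4G31530 was even under quantile normalization, on average and within each pair of numbers. Its normalized log2 level ran from 4.35 to 5.16 in leaf (median 4.66) and from 4.53 to 5.05 in stem (median 4.89). The stem values all lay inside the range of the leaf values. The leaf mean was 4.72 ± 0.32 and the stem mean 4.82 ± 0.22 (SD, n = 6 for both). AT3G26630 was near the limit, with 4.08 to 4.83 in leaf (median 4.60) and 3.41 to 4.58 in stem (median 4.16), a difference of -0.44. Its stem samples 1, 3 and 4 were below every leaf sample, and its other 3 stem samples lay among them.

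The next 4 genes by brightness had mean normalized levels between 1.03 and 1.64. AT1G74470, geranylgeranyl reductase, ran from 1.13 to 1.96 in leaf (median 1.60) and from 1.21 to 2.26 in stem (median 1.75). Its average difference of 0.22 joined unlike parts. Within numbers 1 and 2 it differed by -0.33, within 3 and 4 by -0.028 and within 5 and 6 by 1.02, so stem was the higher tissue in the last pair only, where the leaf mean was 1.15 and the stem mean 2.17. AT4G29890 had the same shape on a flat average of -0.025, with differences of -0.55, -0.54 and 1.02 in the 3 pairs. Its leaf samples 5 and 6 (mean 0.62) were the lowest of leaf, and its stem samples 5 and 6 (mean 1.64) the highest of stem. AT3G47650 ran from 0.63 to 1.73 in leaf and from 0.98 to 1.84 in stem, with differences of 0.17, -0.11 and 0.28. AT1G51350 ran from 0.90 to 1.22 in leaf (median 0.99) and from 0.99 to 1.39 in stem (median 1.31), with stem above leaf by 0.36, 0.11 and 0.24 in the 3 pairs.

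**Figure D1:**
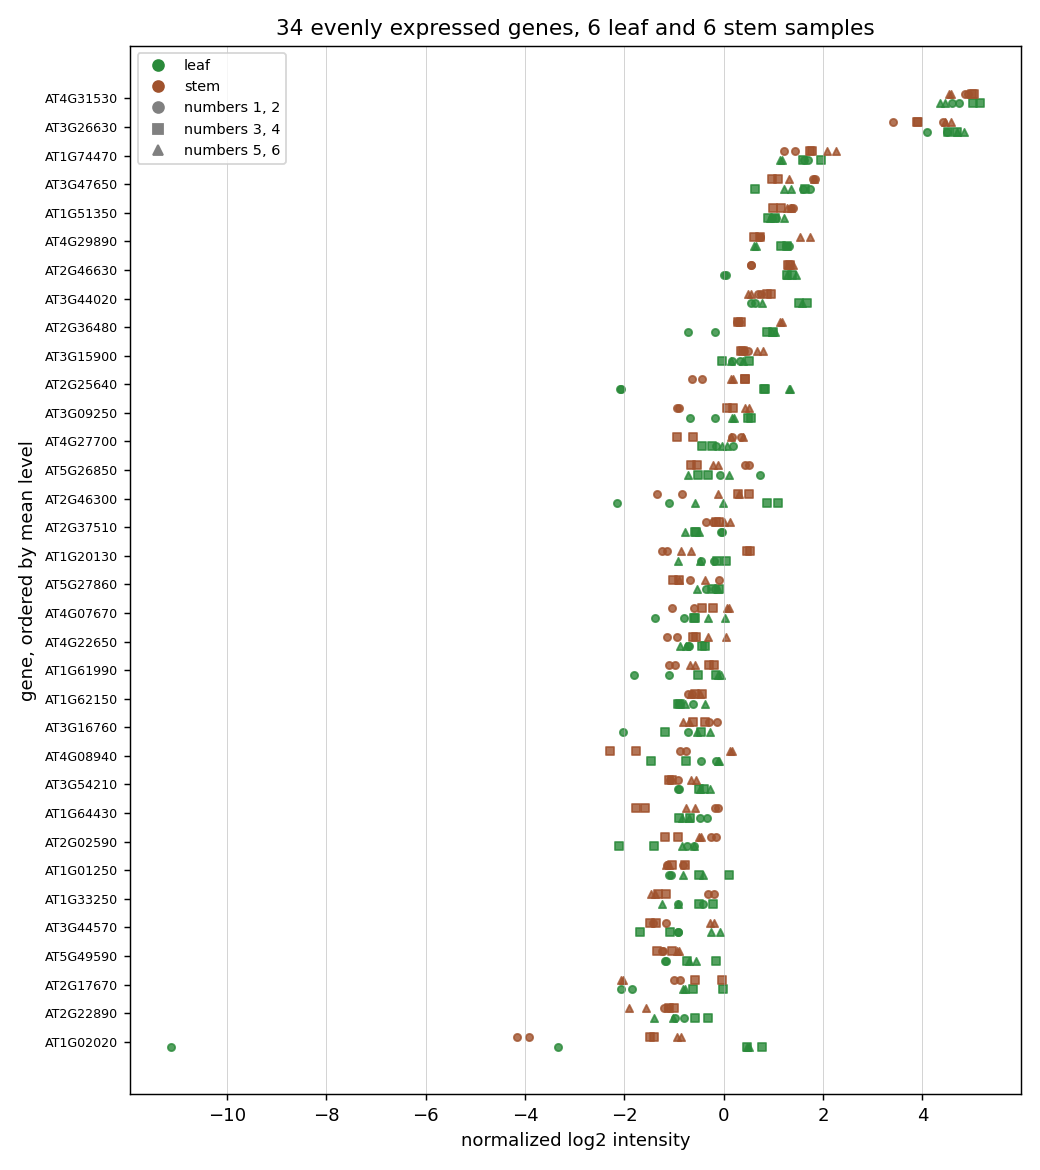
Normalized log2 intensity of the 34 genes (horizontal axis) by gene (vertical axis, ordered by mean level); each point is 1 array, leaf in green and stem in brown, with the symbol giving the pair of numbers. Leaf and stem points overlap in every gene, and in many genes, such as AT2G46630 and AT2G25640, the circles of numbers 1 and 2 lie apart from the other points of the same tissue.

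An even average did not mean a constant level. The SD within tissue, pooled over leaf and stem, ran from 0.136 to 3.50 log2 units, with a median of 0.44 and quartiles of 0.336 and 0.563. The median was 0.45 over the 712 bright probes and 0.48 over the 74 other bright locus-named genes, both close to that of the 34 genes. The SD was larger in leaf than in stem for 21 of the 34 (61.8%), against 65.4% of the bright probes.

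The steadiest gene was AT1G51350. Its SD within tissue of 0.136 lay at the 1.26th percentile of the bright probes, and its highest array was 1.41-fold above its lowest. AT1G62150 followed, with -0.93 to -0.37 in leaf (median -0.84) and -0.72 to -0.45 in stem (median -0.61), an SD of 0.17 and a span of 1.47-fold over the 12 arrays. AT3G15900 ran from -0.04 to 0.50 in leaf (median 0.25) and from 0.35 to 0.80 in stem (median 0.45), an SD of 0.19. AT2G37510, AT3G54210 and AT4G31530 completed the 6 with the smallest spread, with SDs of 0.247, 0.248 and 0.27 and spans of 1.88-, 1.75- and 1.75-fold. A small SD did not mean an even level in every pair of numbers. AT2G37510 differed by -0.25, 0.45 and 0.71 in the 3 pairs, and AT3G54210 by -0.08, -0.61 and -0.23. The average stem minus leaf difference was larger in size than the SD for AT1G51350 (0.24), AT3G15900 (0.27), AT2G37510 (0.30) and AT3G54210 (-0.31). It was smaller than the SD for AT1G62150 (0.16) and AT4G31530 (0.10). The mean levels of the 6 genes ranged from -0.74 for AT3G54210 to 4.77 for AT4G31530.

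At the other end, AT1G02020 was even on average but not within any pair of numbers. Its deposited intensity was 0.0777 in leaf sample 1 and 0.000467 in leaf sample 2, but 1.62, 2.03, 1.22 and 1.17 in leaf samples 3 to 6. In stem it was 0.0467 and 0.0513 in samples 1 and 2, and 0.574 to 0.606 in samples 3 to 6. Both tissues were thus low in numbers 1 and 2, and leaf was above stem in every number except number 2. On the normalized log2 scale leaf ran from -11.13 to 0.76 (median 0.47) and stem from -4.16 to -0.87 (median -1.44). The stem minus leaf difference was 3.19 within numbers 1 and 2, -2.06 within 3 and 4 and -1.39 within 5 and 6, which averaged to -0.087. Without leaf sample 2 the average was -1.905, so the place of AT1G02020 among the even genes rests on that 1 array.

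AT2G25640 had a similar but smaller pattern, with values that did not rest on 1 array. Leaf samples 1 and 2 were at -2.07 and -2.09, and leaf samples 3 to 6 at 0.80 to 1.34. Stem samples 1 and 2, at -0.65 and -0.45, were also the lowest of stem, and the other stem samples lay between 0.15 and 0.43. The differences within the pairs were 1.53, -0.39 and -1.17, against an average of -0.0089. Neighbouring numbers were nearly the same, and accounted for 0.15% of the variation left after the tissue means were removed. AT2G46300 ran from -2.14 to 1.08 in leaf (median -0.30) and from -1.35 to 0.52 in stem (median 0.08). It was lowest in numbers 1 and 2 and highest in numbers 3 and 4 in both tissues, with pair means of -1.62, 0.98 and -0.30 in leaf and -1.10, 0.40 and 0.10 in stem.

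The remaining genes of wide spread differed in which numbers stood apart. AT4G08940 was lowest in numbers 3 and 4, with pair means of -1.11 in leaf and -2.03 in stem, and highest in numbers 5 and 6, at -0.11 and 0.15. AT2G17670 was low in leaf samples 1 and 2 (mean -1.96) and in stem samples 5 and 6 (mean -2.04), and its highest pair was numbers 3 and 4 in both tissues, at -0.32 and -0.31. AT2G36480 was low in leaf samples 1 and 2 (-0.72 and -0.17), while its other leaf samples lay between 0.86 and 1.02. Its stem samples were split, with 0.26 to 0.34 in numbers 1 to 4 and 1.13 and 1.18 in numbers 5 and 6.

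**Figure D2:**
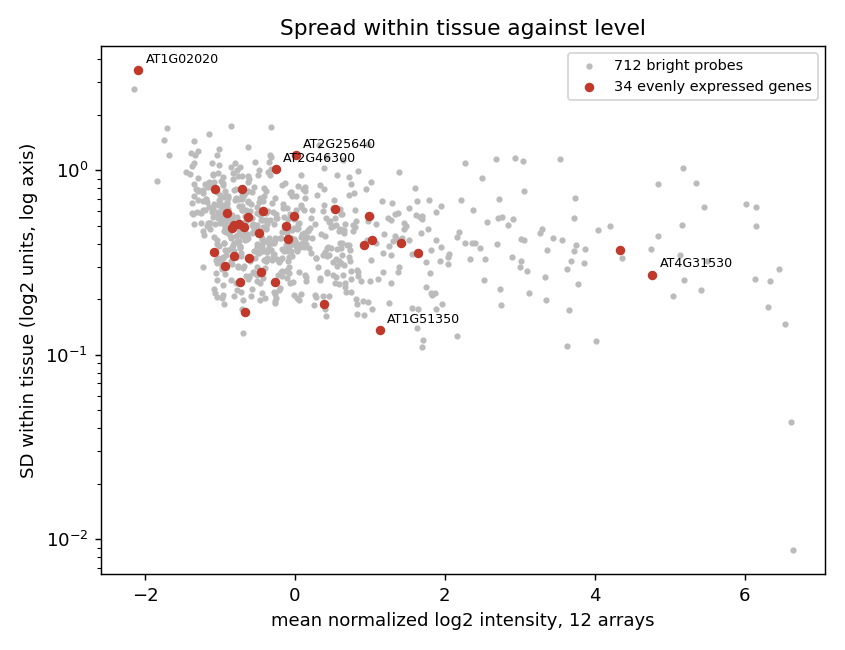
SD within tissue (vertical log axis, log2 units, pooled over leaf and stem) against mean normalized log2 intensity (horizontal axis); grey points are the 712 bright probes and red points the 34 even genes. The red points lie throughout the grey cloud, from AT1G51350 at 0.136 to AT1G02020 at 3.50.

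The stem minus leaf difference was then read within each pair of numbers. It was under 0.5 in size for 24 of the 34 genes within numbers 1 and 2, for 18 within numbers 3 and 4 and for 23 within numbers 5 and 6. These shares of 70.6%, 52.9% and 67.6% stood beside 67.8%, 63.4% and 66.1% of the 295 bright probes that met the same limit on the average. The 34 genes are part of these 295 probes and of the 712 bright probes. Of the values of the 295 probes, 49 were at the top of the scale, against 0 for the 34 genes. The difference was under 0.5 in all 3 pairs for 10 genes (29.4%), against 26.8% of those 295 probes. The 10 genes were AT4G31530, AT3G47650, AT1G51350, AT3G15900, AT3G09250, AT4G27700, AT5G26850, AT4G07670, AT1G62150 and AT3G44570. AT4G07670 had the most alike differences, at 0.28, 0.26 and 0.23, although its level itself moved with the numbers, from -1.10 to -0.15 over the pair means of leaf and from -0.82 to 0.08 over those of stem. AT3G09250 was the closest of the 10 to the limit, with -0.49, -0.40 and 0.28.

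The difference had both signs among the 3 pairs for 23 of the 34 genes (67.6%), against 75.9% of the 295 bright probes under the same limit. For 6 genes (17.6%) it passed 1 in size in at least 1 pair, against 18.3% of those probes. Mixed signs are favoured by the choice of averages near 0. These 6 genes were AT1G74470, AT4G29890, AT2G25640, AT3G16760, AT2G17670 and AT1G02020. AT2G17670 differed by 1.02, 0.0074 and -1.24 in the 3 pairs, and AT3G16760 by 1.15, 0.32 and -0.35. In AT3G16760 leaf sample 2, at -2.02, was the lowest of leaf, and the average difference without it was 0.14 in place of 0.37. AT1G20130 ran the other way, at -0.87 within numbers 1 and 2, 0.54 within 3 and 4 and -0.06 within 5 and 6. Its stem samples 3 and 4 were at 0.46 and 0.52, above all its other values. Over the 34 genes the median difference was 0.16, -0.29 and 0.055 in the 3 pairs. It was 0.11, -0.056 and -0.081 over the 295 bright probes under the same limit, and 0.10, 0.058 and 0.094 over all 712 bright probes.

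**Figure D3:**
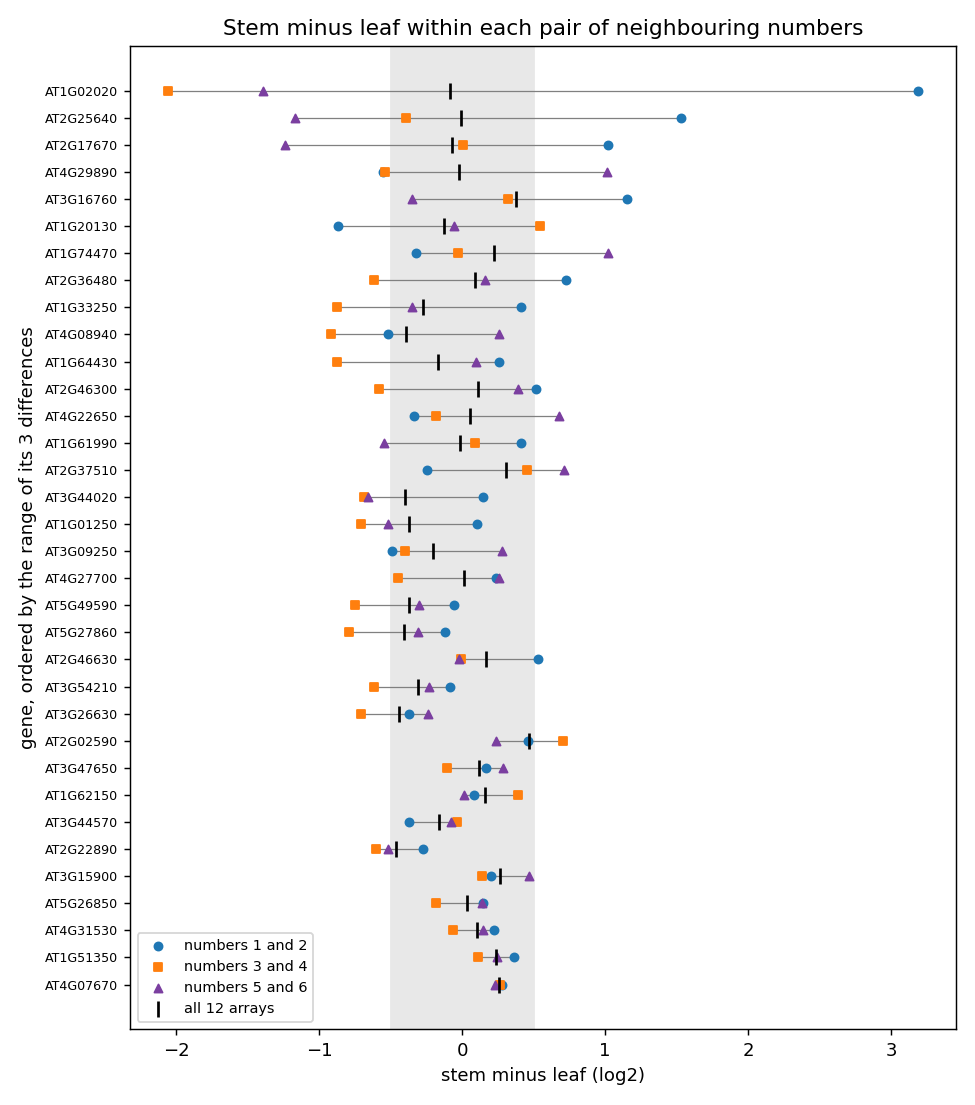
Stem minus leaf difference (horizontal axis, log2) of each gene within numbers 1 and 2, 3 and 4, and 5 and 6, with the black mark for all 12 arrays; genes are ordered by the range of the 3 differences and the grey band marks differences under 0.5. AT1G02020 ranges over 5.25 and AT4G07670 over 0.049, with all black marks inside the band.

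Differences between the sample numbers do not depend on the limit on the stem minus leaf difference, because each number has 1 leaf and 1 stem sample and a shift shared by both leaves that average as it is. They are not free of the limit on intensity, since a gene can reach it through the numbers in which it is high. Examples are AT1G02020, through numbers 3 to 6, and AT3G44570, through numbers 5 and 6. The 712 bright probes that met the same limit are therefore given beside the counts. The differences between numbers were tested in limma with a moderated F test over the 6 numbers, with tissue as a term, on the 1870 probes above 0 on all arrays. Like the fit of stem against leaf, this test took the arrays as separate samples, although neighbouring numbers were much alike. The p-values of both can therefore be too small, and the counts below are read only beside the shares of other probes. At an adjusted p under 0.05 the test called 0 of the 34 genes, against 7 of the 1870 probes (0.374%) and 5 of the 712 bright ones (0.702%). At an unadjusted p under 0.05 it passed 12 of the 34 (35.3%), against 15.5% of all probes tested and 19.9% of the bright probes. Of the 295 bright probes under the same limit on the difference it passed 22.0%. Without limma's trend and robust settings the counts for the 34 genes were 0 and 10. AT2G46300 came nearest to a call (F = 13.2, adjusted p = 0.065), followed by AT2G46630 (F = 8.54, adjusted p = 0.12) and AT3G44570 (F = 7.32, adjusted p = 0.17).

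These calls changed with the scaling and with the probes included. In the deposited values AT2G46300 and AT2G46630 were called (adjusted p = 0.047 each). With probes under the intensity limit left out before normalization, AT2G46300 (adjusted p = 0.031) and AT1G02020 (adjusted p = 0.022) were called, and without the samples numbered 2 AT1G02020 was (adjusted p = 0.035). AT1G02020 reached the limit on intensity only through numbers 3 to 6, so nothing is read from its calls. The values behind AT2G46630 were 0.04 and 0.01 in leaf samples 1 and 2, against 1.26 to 1.46 in leaf samples 3 to 6. In stem it stood at 0.55 in samples 1 and 2, against 1.29 to 1.40 in the others. Numbers 1 and 2 were therefore below all others in both tissues, with no overlap. AT3G44570 was highest in numbers 5 and 6, at -0.08 and -0.25 in leaf and -0.21 and -0.29 in stem, and every other sample of it was at -0.92 or lower. Its deposited intensity was 0.630 to 0.951 in numbers 5 and 6 and 0.331 to 0.614 in the others. It reached the limit on intensity only through numbers 5 and 6, so nothing is read from its place in the test.

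The variation left in each gene after its tissue means were removed was divided into 3 parts. The part shared by leaf and stem of the same pair of numbers had a median of 64.9% over the 34 genes, against 53.2% over the 295 bright probes under the same limit. The part in which leaf and stem of a pair moved apart had a median of 20.9%, against 27.4%, and the part between neighbouring numbers 10.05%, against 10.4%. The shared part was the largest of the 3 in 25 genes, the part that differed between tissues in 4 and the part between neighbours in 5. Among the 295 bright probes under the same limit these counts were 185, 70 and 40, so the shared part was the largest in most of those too. AT2G46630 (92.8%), AT3G44570 (91.2%) and AT4G31530 (89.9%) had the highest shared parts. AT4G29890 (93.7%), AT2G37510 (79.8%) and AT1G74470 (78.4%) had the highest parts that differed between tissues. AT3G15900 (57.1%), AT5G27860 (55.6%) and AT1G62150 (53.4%) varied mostly between neighbours, and each had an SD under the lower quartile of 0.336. These shares are a description, since the pairs were seen in the data. A test over the 3 pairs in place of the 6 numbers called 17 of the 34 genes at an adjusted p under 0.05 in limma, where it called 23.3% of all 1870 probes and 33% of the bright ones. Samples were joined because they were alike, so the p-values of that test are too small and nothing is read from its counts.

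Over the 34 genes, the samples resembled their pair of numbers more than their tissue. The rank correlation of 2 samples over the genes was 0.885 to 0.983 (median 0.939) for neighbouring numbers of 1 tissue. It was 0.758 to 0.839 (median 0.808) for leaf and stem samples of the same pair of numbers, and 0.389 to 0.776 (median 0.666) for samples of 1 tissue in different pairs. Over all 712 bright probes the last 2 medians stood in the other order, at 0.511 and 0.791. The genes were chosen for a small tissue difference, which by construction can lower the likeness within a tissue relative to that across tissues, and over the 295 bright probes under the same limit the medians were 0.853 and 0.781. Leaf samples 1 and 2 correlated with stem samples 1 and 2 at 0.793 to 0.837 and with leaf samples 3 to 6 at 0.389 to 0.535. These correlations are a description across genes, which share arrays and are not independent replicates.

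**Figure D4:**
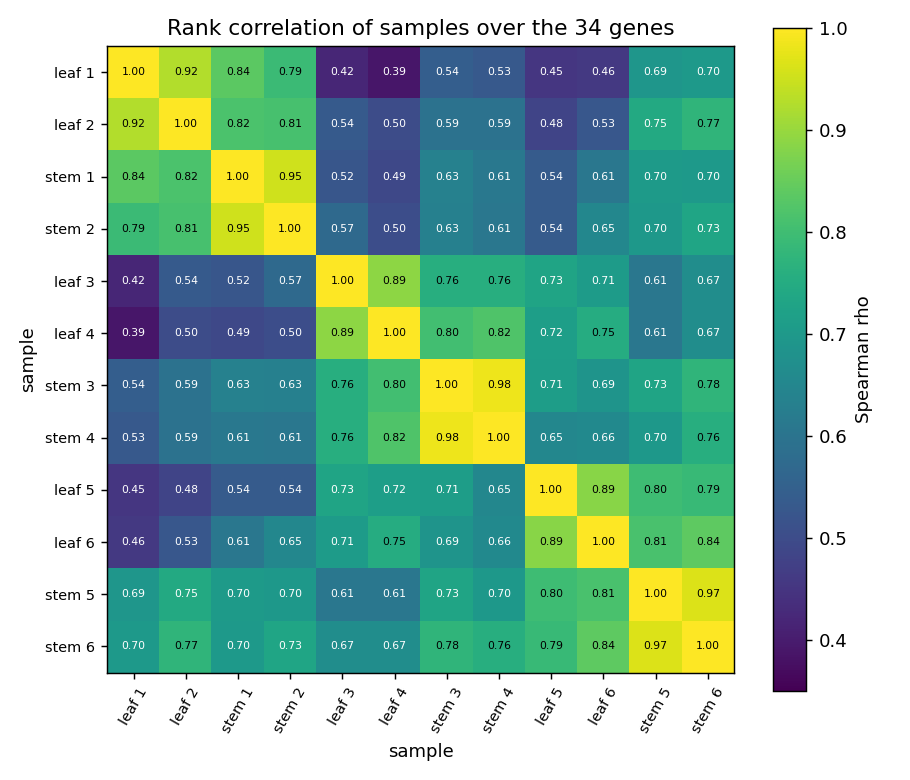
Spearman rank correlation (colour, and the number in each cell) between the 12 samples over the 34 genes, with samples of both axes arranged by pair of numbers. The blocks of 4 samples along the diagonal, each of 2 leaf and 2 stem samples, are at 0.76 or higher, and leaf 1 with leaf 4 is lowest at 0.39.

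Some of the genes moved together from sample to sample, about as often as the 295 bright probes under the same limit did. The pairs named below are among the most extreme. Among the 561 pairs of genes, the correlation of the deviations from the tissue means over the 12 arrays was above 0.8 for 23 pairs (4.1%) and below -0.8 for 5 (0.891%), against 3.41% and 2.09% of the pairs among the 295 bright probes. AT2G46630 and AT2G25640 were the most alike (r = 0.95), and both were alike to AT1G61990 (r = 0.89 and 0.91). These 3 genes were at their lowest in leaf samples 1 and 2. AT2G36480 and AT3G54210 (r = 0.93), and AT1G74470 and AT4G22650 (r = 0.89), made other such pairs. AT1G20130 moved against AT1G64430 (r = -0.89) and AT4G27700 (r = -0.88), being highest in stem samples 3 and 4, where the other genes were lowest. The 12 arrays hold neighbours that were far alike, so these correlations rest on few separate points and are given without a test.

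Which genes counted as even depended on the scaling of the arrays. After quantile normalization 16 of the 34 had a higher mean in stem and 18 a lower one, with a median difference of -0.013, against 0.13 over all 2657 tested probes. In the deposited values 26 were higher and 8 lower in stem, with a median of 0.13 against 0.62 over all tested probes, and 28 stayed under the limit. With each array centred on its median 3 were higher and 31 lower, with a median of -0.44 against 0.047, and 21 stayed under it. The genes were chosen under quantile normalization, so their count could only stay or fall in another scaling. Of the bright probes, 41.43% were under the limit after quantile normalization, 37.78% in the deposited values and 35.96% with median centring. The share of even probes thus changed little. AT3G26630 had the lowest difference of the 34 in both other scalings, with -0.75 in the deposited values and -1.32 with median centring. The bright AT4G31530 went from 0.10 to -0.34 and -0.91, whereas AT1G51350 was at 0.16 and -0.42. In the same limma fit that was applied to the whole array, 0 of the 34 genes passed an adjusted p of 0.05 for stem against leaf and 0 had leaf and stem values without overlap, where 24.2% of 2657 tested probes and 42.8% of the bright probes passed and 16.4% of 1870 had no overlap. The rule used this contrast, so these zeros describe the choice of the genes and nothing is read from them.

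**Figure D5:**
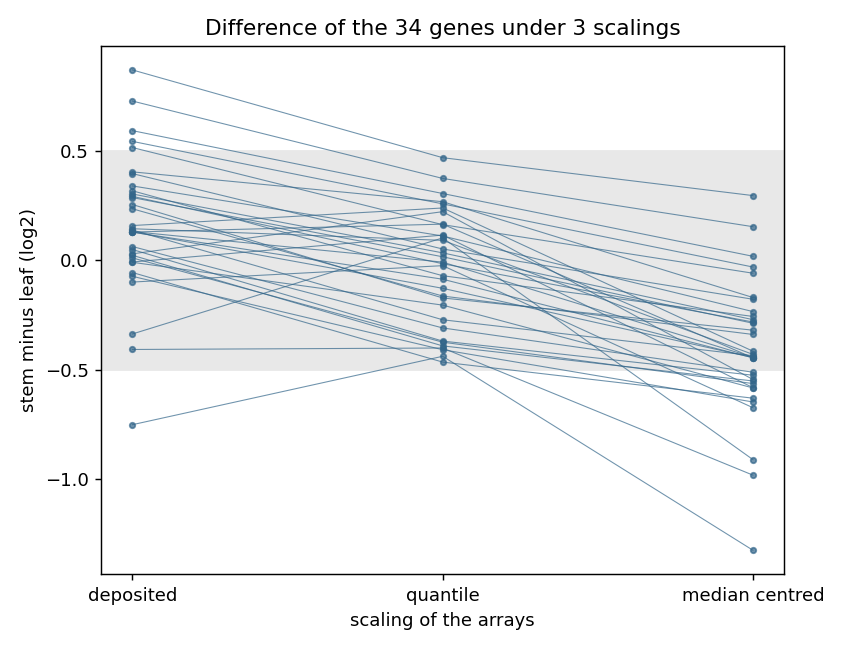
Stem minus leaf difference (vertical axis, log2) of the 34 genes under 3 scalings of the arrays (horizontal axis), with a line for each gene and the grey band for differences under 0.5. All 34 lie in the band under quantile normalization, where they were chosen, 28 in the deposited values and 21 with median centring.

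The genes next to the limits show how fine the rule was. Just inside the limit on the difference were AT2G02590 (0.47), AT2G22890 (-0.47) and AT3G26630 (-0.44), and just outside it were AT5G17280 (0.51), AT2G19280 (0.51) and AT5G11010 (-0.52). Just inside the limit on intensity were AT2G22890, with a mean deposited value of 0.513, and AT5G49590, with 0.551, and just outside it AT5G06990, with 0.480, and AT1G30700, with 0.472. AT2G02590 ran from -2.11 to -0.60 in leaf (median -0.80) and from -1.19 to -0.16 in stem (median -0.48), with leaf sample 4 the lowest. AT2G22890 ran from -1.41 to -0.32 in leaf (median -0.89) and from -1.90 to -1.004 in stem (median -1.17). When each array was left out in turn, with the normalization kept, 27 of the 34 genes stayed under the limit throughout and 7 passed it at least once. The 7 were AT3G26630, AT3G44020, AT5G27860, AT4G08940, AT2G02590, AT2G22890 and AT1G02020.

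The genes not yet described lay between these extremes. AT3G44020 was higher in leaf samples 3, 4 and 6 (1.52 to 1.68) than in any other sample, and its stem values stayed within 0.49 to 0.95. AT1G01250 ran from -1.11 to 0.10 in leaf and from -1.17 to -0.77 in stem, and AT5G49590 from -1.19 to -0.17 and from -1.35 to -0.90. In both, leaf sample 3 or 4 was the highest of all. AT1G33250 was highest in stem samples 1 and 2 and in leaf sample 3, at -0.21, -0.32 and -0.21. AT5G26850 was at 0.42 and 0.51 in stem samples 1 and 2 and at 0.73 in leaf sample 2, above all its other values. AT4G27700 had leaf values within -0.43 to 0.18, while in stem samples 3 and 4 it stood at -0.62 and -0.95, below every other sample. AT1G64430 had the same low stem samples, at -1.58 and -1.76, with all others at -0.90 or higher. AT4G22650 ran from -0.88 to -0.38 in leaf and was highest in stem sample 5, at 0.05. AT5G27860 had a narrow leaf range of -0.55 to -0.10 and stem values from -1.02 to -0.09.

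Of 26 genes that are often used as constant internal standards, 1 had a probe of its own. MON1 (AT2G28390), a subunit of a vacuolar trafficking complex, had a mean of -2.38 ± 1.27 in leaf and of -1.72 ± 0.58 in stem (SD over 6 samples of each tissue) and differed by 0.66 (adjusted p = 0.37 in limma). Its mean deposited intensity of 0.332 was under the limit of the rule. Its SD within tissue of 0.985 was larger than that of 31 of the 34 even genes.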

How the data were processed

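The authors deposited 1 table of linear array intensity for 3439 probes and 12 samples, with values from 0 to 100. How they corrected background and scaled the arrays, and what an exact 0 stands for, is not given in the sources consulted. Tissue and number came from the sample titles. Intensities were converted to log2 with zeros missing and quantile normalized over the 12 arrays in limma 3.58.1 (R 4.3.3, statmod 1.5.0). Probes with at least 4 values above 0 in each tissue (2657) were fitted for stem against leaf, and probes above 0 on all arrays (1870) for differences between numbers with tissue as a term, using lmFit and eBayes with trend and robust variance and Benjamini-Hochberg adjustment over all probes fitted. Probes were named from the array's gene table, in which 692 had 1 gene; loci were looked up in a RefSeq gene table of assembly TAIR10.1, and all 34 were found. Figures were drawn with matplotlib 3.10.9.

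The genes, lists and tests were chosen with earlier results of these data known. The genes named are the 6 brightest, the 6 with the smallest and the 6 with the largest SD within tissue, the 6 whose difference ranged most over the pairs of numbers, those next to the limits and those on the fixed lists; 0 genes qualified for naming by a called difference between numbers. The others were named after their values were seen.

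Samples sharing a number deviated together across tissues (r = 0.171 to 0.262 over 1870 probes, against -0.165 to 0.153 for different numbers), which the labels do not state. The different numbers included neighbouring ones, so pairing by single number was not told apart from likeness within a pair of numbers. The main fit of stem against leaf used no pairing. On simulated data of 1870 probes with 200 changed, the test of numbers recovered 47.3% of changes of 4-fold and 85.4% of 16-fold in 1 number, with 3.91% false calls. The test of stem against leaf recovered 60.1% (2-fold) and 90.8% (4-fold), and 4.26% of its calls were false. The simulated noise was independent between arrays, with the spread left after tissue and number were removed. It held no likeness of neighbouring numbers, which the measured arrays show, so these rates need not hold for them.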

Additional observations from a re-analysis of the deposited data

Results flagged for a closer look

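In 68 groups of 6 samples (the 34 genes in leaf and in stem), 1 sample stood far from the others by its gap to the nearest of them. For AT1G02020, leaf sample 2 was at -11.13 on the normalized log2 scale, against -3.34 in the next leaf sample and 0.76 in the highest. Chance sets about 1 in 20 such groups apart.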

How the results depend on the processing

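The 34 genes were chosen under quantile normalization, so their count under the limit could only stay or fall in another scaling. Of the 34 genes, 21 stayed under the limit of 0.5 with median centring, and 20 were under a limit of 0.25. The count was 28 in the deposited values, 24 with dim probes left out, 29 to 34 without 1 number, 31 to 34 without 1 array and 24 without numbers 1 and 2. Leaving out single arrays, or both of the first numbers, was added once the data had been seen. Of the 34 differences, 9 moved by more than the SD within tissue in the deposited values, 11 with median centring and 2 without dim probes. Stem against leaf called 643 probes, 702 with the replicate number as a block, 354 without dim probes (735 probes tested, fewer by construction) and 374 to 655 without 1 number (422, 404, 374 and 391 without numbers 3, 4, 5 and 6); its count was within 1.5 times the first under the other settings run. Differences between numbers called 7 probes, 60 in the deposited values, 3 with median centring, 21 without dim probes, 0 without trend and robust settings, 0 to 3 without 1 number, 0 without numbers 1 and 2, and 435 (23.3%) with the numbers joined into 3 pairs. For the 34 genes the calls were 0, and 2 in the deposited values, 2 without dim probes, 0 to 1 without 1 number and 17 with 3 pairs, where 33% of bright probes passed; the pairs were chosen for the likeness of their samples, so those p-values are too small. The cause of these changes was not tested.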
